A study of Homo sapiens with 5 samples.

Results

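The genes described here are 36 genes of the NF-kB system: its DNA-binding subunits, inhibitors and other regulators that feed back on it, and inflammatory genes that it is known to switch on. They were taken by name from a list of 36 names, and all 36 were among the 27992 gene names of the count table and were also listed in the TPM table. Of these, 27 reached at least 1 CPM (counts per 1000000 gene reads, scaled by TMM, the trimmed mean of M values) in at least 1 library and were analysed, beside 15109 analysed genes in all. Of the 27, 23 reached 1 CPM in every library. CXCL3 passed only through the YFP-medium and YFP-high libraries, CSF2 only through YFP-negative, TNFAIP6 only through parental and YFP-negative, and IL1A through every library but parental, so these 4 entered through the libraries where they are high.

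The study asked how much E2F1 it takes to set the fate of a cell. E2F1 is a transcription factor of S-phase entry that can also drive apoptosis. The cells were U2OS, an established line from a human osteosarcoma. The YFP-high, YFP-medium, YFP-low and YFP-negative libraries came from fractions, sorted by flow cytometry, of U2OS cells carrying pTRIPZ-YFP-ER-E2F1, a doxycycline-inducible construct whose E2F1 is fused to YFP and to ER, the hormone-binding part of the oestrogen receptor that OHT (4-hydroxytamoxifen) activates. The parental library came from U2OS cells without it. The medium held 8% serum. Doxycycline was given at 500 ng/ml for 48 h before 90 nM OHT for 20 h more, and parental cells are labelled with the same treatment. The labels do not say whether the carrying cells were 1 clone or a pool or whether parental cells went through the sorter, and YFP-negative cells carry the construct too. Each group had 1 library with 70.7 M to 76.5 M gene reads, so no difference has a replicate check, no test was made, and intervals cover counting error only.

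E2F1 transcripts followed the gates, at 86.1 CPM (parental), 106 CPM (YFP-negative), 163 CPM (YFP-low), 361 CPM (YFP-medium) and 996 CPM (YFP-high). Counts per gene name do not separate the cell's own E2F1 from that of the construct. The osteosarcoma label was met by VIM, at 1353 to 1565 CPM, COL1A1, at 750 to 3271 CPM, and RUNX2, at 32.5 to 50.7 CPM, whereas COL1A2 stayed at 0.25 to 0.401 CPM. Of 11 markers of leukocytes, cells in which many of these inflammatory genes are abundant, 1 passed the filter, CD68, at 3.21 to 5.00 CPM, and the list summed to 4.88 to 6.66 CPM in every library. CD3E, LYZ and FCGR3A were at 0 reads in parental cells. Of 5 epithelial markers 4 passed the filter, and that list summed to 454 to 572 CPM, so RNA of epithelial markers was present too. The 7 mesenchymal and osteosarcoma markers summed to 4166 to 8125 CPM. Of 6 endothelial markers 3 passed, with a sum of 2.21 to 4.84 CPM. In bulk samples of sorted cells, fewer cells that express a gene and less RNA per cell cannot be told apart.

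NF-kB dimers are held in the cytoplasm by IkB proteins. Signals from receptors such as those for TNF and interleukin-1 lead a kinase complex to mark IkB for destruction, and the freed dimers bind kB sites in promoters. Among the genes switched on are IkB genes and TNFAIP3, which close the loop, and cytokines, chemokines and adhesion molecules. In mesenchymal tumour lines such as osteosarcoma cells, NF-kB is known for driving IL8 and CCL2.

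Promoter windows are printed here for 5 members whose levels ran in opposite directions over the YFP gates. All 5 were picked from members with a match to the kB consensus, so that each window holds one was fixed by the choice. CD83 has 2 promoter entries and NFKB2 has 3, and the first entry with a match is printed. Each window runs from 250 bases before to 50 after a transcript start, comes from RefSeq on build GRCh38.p14, and is written 5′ to 3′ on the gene's strand with matches to the kB consensus on either strand in capitals (overlapping matches run together). The levels of CD83, PTX3 and CXCL3 were highest in YFP-high cells, and those of CCL20 and NFKB2 were lowest there among the 4 fractions. The windows lie at chr6:14117522-14117821 (plus strand) for CD83, at chr3:157436600-157436899 (plus strand) for PTX3, at chr4:74038640-74038939 (minus strand) for CXCL3, at chr2:227813592-227813891 (plus strand) for CCL20 and at chr10:102394328-102394627 (plus strand) for NFKB2.
CD83: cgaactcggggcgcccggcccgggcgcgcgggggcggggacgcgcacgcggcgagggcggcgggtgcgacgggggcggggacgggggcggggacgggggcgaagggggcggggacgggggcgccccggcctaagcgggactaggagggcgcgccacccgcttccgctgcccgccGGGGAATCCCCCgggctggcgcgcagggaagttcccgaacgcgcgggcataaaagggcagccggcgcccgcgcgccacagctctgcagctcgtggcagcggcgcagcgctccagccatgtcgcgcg
PTX3: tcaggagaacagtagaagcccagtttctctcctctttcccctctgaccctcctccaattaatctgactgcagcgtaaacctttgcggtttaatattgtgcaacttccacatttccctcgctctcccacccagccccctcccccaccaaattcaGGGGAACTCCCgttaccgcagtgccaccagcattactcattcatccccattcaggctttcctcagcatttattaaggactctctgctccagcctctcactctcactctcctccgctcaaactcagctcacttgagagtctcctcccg
CXCL3: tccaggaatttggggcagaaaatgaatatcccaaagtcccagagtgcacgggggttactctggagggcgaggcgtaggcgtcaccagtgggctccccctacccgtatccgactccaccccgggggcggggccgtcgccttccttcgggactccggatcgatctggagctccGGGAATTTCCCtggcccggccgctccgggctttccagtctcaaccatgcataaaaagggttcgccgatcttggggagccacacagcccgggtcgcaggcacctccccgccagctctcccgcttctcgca
CCL20: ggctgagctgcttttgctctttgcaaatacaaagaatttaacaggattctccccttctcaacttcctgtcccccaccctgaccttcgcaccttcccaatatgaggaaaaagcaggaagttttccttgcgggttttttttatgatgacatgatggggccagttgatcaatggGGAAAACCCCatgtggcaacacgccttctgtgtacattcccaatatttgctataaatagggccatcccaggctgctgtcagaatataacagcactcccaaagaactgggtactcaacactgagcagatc
NFKB2: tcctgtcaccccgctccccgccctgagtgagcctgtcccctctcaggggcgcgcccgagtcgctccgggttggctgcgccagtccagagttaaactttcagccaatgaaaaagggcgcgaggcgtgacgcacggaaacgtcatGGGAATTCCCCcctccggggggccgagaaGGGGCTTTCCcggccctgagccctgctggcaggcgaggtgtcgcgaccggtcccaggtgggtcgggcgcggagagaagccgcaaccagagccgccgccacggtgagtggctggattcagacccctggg

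The table of promoters held entries for 30 of the 36 members, and CSF1, CCL2, CCL5, CX3CL1, RELB and NFKBIE had no entry. A kB match stood in a window of 19 of the 30, or 63.3%, against 7.09% of all 27305 gene symbols with any entry. Many members were listed for being known NF-kB targets, so this share describes the choice of members. In the printed windows of CD83, PTX3 and CXCL3 the first matched base lay 76, 97 and 79 bases before the start, and in CCL20 79 bases before it. The words TTTCCCGC and TTTGGCGC, forms of the site that E2F proteins bind, were looked for on both strands. TTTCCCGC was found for REL and NFKBIB, in both cases overlapping the kB match, or 2 of 30 members, against 1.98% of all gene symbols, and TTTGGCGC for 0 of 30 members, against 0.795%. A match is a run of letters and not a measured binding site.

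The words higher and lower are used of counts of genes for those past 2-fold, judged on the log2 ratio with 0.5 CPM added to both levels, whose exact 95% counting interval of the fold also left out no change. In YFP-high against YFP-negative cells 7 of the 27 members were higher and 6 lower. That is 25.9% and 22.2% of the members, against 20.5% and 11.3% of all analysed genes. Of the 7 higher members, CXCL3 entered only through libraries where it is high, and so did CSF2 and TNFAIP6 of the 6 lower members. With a filter of 1 CPM on the mean of the 5 libraries, chosen after seeing the data, 7 of 25 members were higher and 4 lower, or 28% and 16%, against 19.3% and 11.6% of all genes. The median log2 ratio of the members was 0.04, and that of all genes was -0.04. In YFP-high against parental cells 14 members were higher and 4 lower, or 51.9% and 14.8%, against 21.3% and 14.9% of all genes, with a median of 1.02 for the members and -0.04 for all genes. CXCL3 and IL1A of these 14, and CSF2 and TNFAIP6 of these 4, entered only through libraries where they are high. With the filter on mean level 14 of 25 members were higher and 2 lower. That is 56% and 8%, against 20.2% and 14.8% of all genes. Both comparisons share the YFP-high library. Scaling to total counts moved the median log2 ratio over all genes by -0.25 and -0.22 in these 2 comparisons. It gave 5 higher and 6 lower members against YFP-negative cells and 12 and 4 against parental cells, with 2415 higher and 2865 lower genes (3090 and 1707 with TMM) and 2648 and 3192 (3220 and 2249 with TMM). With that scaling 22.2% of members and 19% of all genes were lower against YFP-negative cells. A kB match stood in 5 of the 6 members with a promoter entry that were higher in YFP-high than in YFP-negative cells, in 2 of 5 that were lower and in 7 of 11 that were neither. The lower members without a match were IL8, CSF2 and TNFAIP6. CCL2 (lower) and CSF1 (higher) had no entry. IL8 is a known NF-kB target, so a lack of a match does not show a lack of a site, and these few genes support no link between matches and direction.

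**Figure D1:**
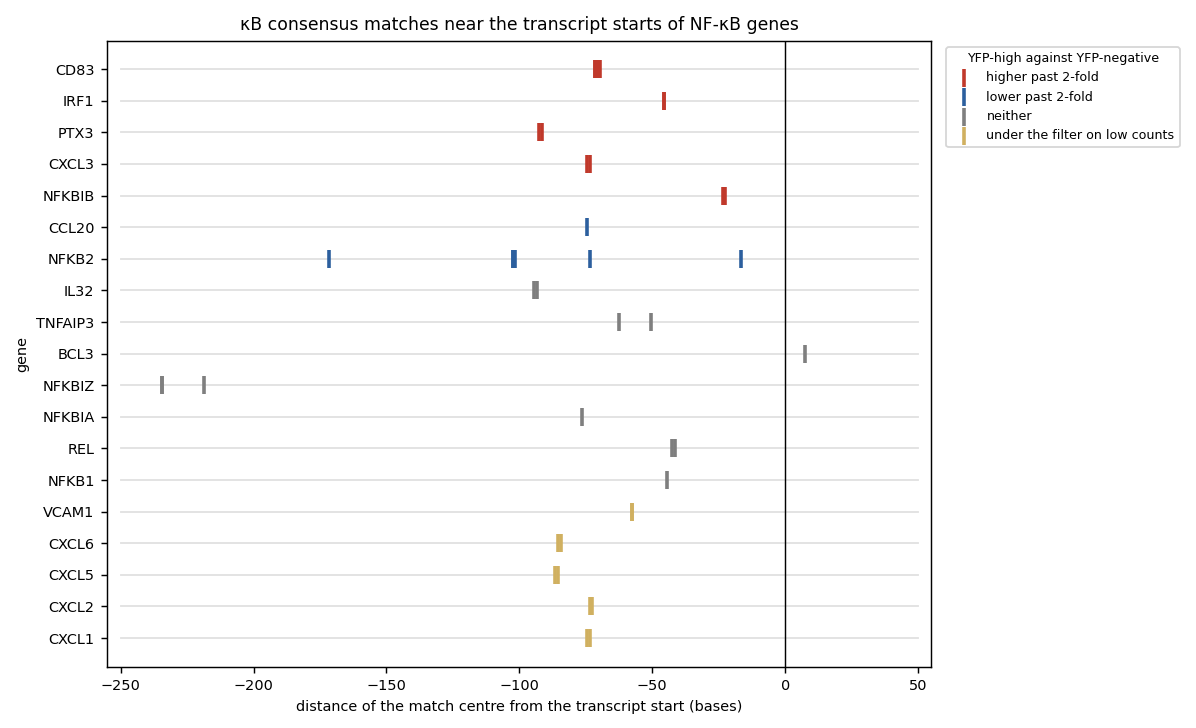
Matches to the kB consensus (ticks) in the windows of the 19 members that hold one, all entries of a gene on 1 line, by distance in bases from the transcript start. Colours give the call in YFP-high against YFP-negative cells. Matches of members that were higher (red) and lower (blue) overlap in position, with the first match of CD83, CXCL3 and CCL20 beginning 76 to 79 bases before the start.

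The baselines themselves differed in these genes. In YFP-negative against parental cells 9 of 27 members were higher and 1 lower, or 33.3% and 3.7%, against 2.15% and 2.93% of all genes. The 9 were RELB, NFKBIE, NFKBIZ, CCL20, IL8, IL1A, IL32, PTX3 and CD83, and the lower one was CX3CL1. IL1A entered only through the libraries other than parental, where it is high, and a filter of 5 CPM leaves it out. The members' median log2 ratio was 0.54 and that of all genes -0.01. Of the 27 members 18 had their lowest level of all 5 libraries in parental cells, or 66.7%, against 28.2% of all analysed genes. E2F1, with the cell's own gene and the construct not separated, was at 1.23-fold between these libraries (1.19 to 1.27). Genes of the tissue label moved too, with COL1A1 at 1254 CPM in YFP-negative and 3271 CPM in parental cells and the 7 mesenchymal and osteosarcoma markers summing to 4852 and 8125 CPM, and their part in the result was not tested. The CX3CL1 call ended with a pseudocount of 2 CPM, at a log2 ratio of -0.92, and so did that of IL1A, at 0.84. Carrying the construct, sorting and any other history that sets the lines apart cannot be told apart here.

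**Figure D2:**
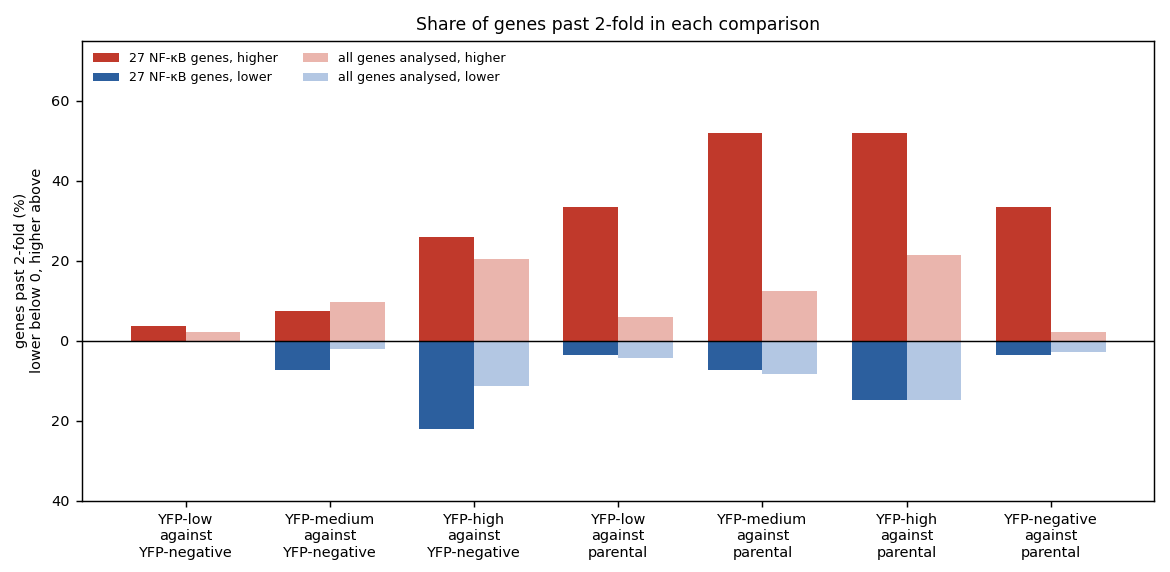
Share of the 27 members (dark bars) and of all 15109 analysed genes (light bars) past 2-fold, higher above 0 and lower below it, in 7 comparisons. On the higher side the members stand above all genes where the parental library is the baseline, at 33.3% against 2.15% for YFP-negative, 51.9% against 12.3% for YFP-medium and 51.9% against 21.3% for YFP-high.

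Among the subunits, the NF-kB family split. NFKB1, whose product is cut to a DNA-binding subunit without an activation domain, had 53.4 CPM (parental), 88.3 CPM (YFP-negative), 105 CPM (YFP-low), 126 CPM (YFP-medium) and 142 CPM (YFP-high). NFKB2, the precursor gene of the non-canonical arm, had 80.2, 138, 114, 89.4 and 52.3 CPM in the same order. NFKB1 was thus highest and NFKB2 lowest in YFP-high cells. Against YFP-negative cells NFKB2 was 2.64-fold lower in YFP-high cells (counting interval 2.54 to 2.74), while NFKB1 was at 1.61-fold (1.56 to 1.66), under the 2-fold rule. Against parental cells NFKB1 was 2.66-fold higher (2.56 to 2.76) and NFKB2 had a log2 ratio of -0.61.

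RELB, the partner of processed NFKB2 in the non-canonical arm, had 11.96 CPM in parental cells and 35.6, 38.5, 40.1 and 47.9 CPM from YFP-negative to YFP-high cells. Its difference lay between the lines more than between the gates, at 2.98-fold in YFP-negative against parental cells (2.77 to 3.21) and 1.34-fold in YFP-high against YFP-negative cells (1.28 to 1.41). REL, which encodes the activating subunit c-Rel, had 9.37, 11.4, 17.0, 21.2 and 20.8 CPM from parental to YFP-high cells, with no difference beyond counting error between YFP-high and YFP-medium. REL was 2.22-fold higher in YFP-high than in parental cells (2.03 to 2.44), a call that ended with total-count scaling, at a log2 ratio of 0.89. The activating subunit RELA had the narrowest range of the 5, at 97.3, 101, 101, 88.5 and 71.8 CPM. Of the 5 subunits, 0 were higher and 1 lower in YFP-high against YFP-negative cells (20.5% and 11.3% of all genes), and 3 were higher and 0 lower against parental cells (21.3% and 14.9% of all genes).

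Levels per transcript length, in TPM (transcripts per 1000000, from the deposited table), differed in order between parental and YFP-negative cells and again in YFP-high cells. In parental cells the highest subunit was RELA at 78.3 TPM, ahead of NFKB2 at 61.4 TPM, NFKB1 at 26.4 TPM, RELB at 15.04 TPM and REL at 10.1 TPM. In YFP-negative cells NFKB2 led at 107 TPM, followed by RELA at 81.8 TPM, RELB at 45.3 TPM, NFKB1 at 44.0 TPM and REL at 12.4 TPM. In YFP-high cells NFKB1 led at 64.9 TPM, followed by RELB at 55.6 TPM, RELA at 53.4 TPM, NFKB2 at 37.0 TPM and REL at 20.9 TPM. RELB and RELA were close in that library, with no replicate to say whether they differ.

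The inhibitors and feedback genes also parted. NFKBIA, the IkB-alpha gene induced by NF-kB itself, had 27.01 CPM (parental), 38.6 CPM (YFP-negative), 37.2 CPM (YFP-low), 34.4 CPM (YFP-medium) and 26.4 CPM (YFP-high). NFKBIB, the IkB-beta gene, had 26.0, 34.8, 38.8, 53.9 and 83.5 CPM in that order. NFKBIA did not differ beyond counting error between YFP-high and parental cells, at 0.976-fold (0.915 to 1.04), whereas NFKBIB was highest in YFP-high cells. NFKBIB was 2.40-fold higher there than in YFP-negative cells (2.30 to 2.51) and 3.21-fold higher than in parental cells (3.05 to 3.38), and the first call ended with total-count scaling, at a log2 ratio of 0.98. NFKBIE, the IkB-epsilon gene, had 16.3, 45.2, 41.5, 36.5 and 30.6 CPM, so its highest level was in YFP-negative cells, 2.77-fold above parental (2.60 to 2.95).

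NFKBIZ encodes a nuclear IkB protein that helps NF-kB switch on a second set of genes. Its levels were 20.0 CPM (parental), 46.2 CPM (YFP-negative), 62.1 CPM (YFP-low), 86.8 CPM (YFP-medium) and 89.3 CPM (YFP-high). It was 4.46-fold higher in YFP-high than in parental cells (4.22 to 4.72) and at 1.93-fold against YFP-negative (1.85 to 2.01), with YFP-medium and YFP-high cells not separated by counting error. BCL3, another nuclear IkB protein, had 12.4, 11.0, 9.202, 6.05 and 8.14 CPM from parental to YFP-high cells, lowest in YFP-medium. TNFAIP3, a ubiquitin-editing enzyme that shuts the pathway off, had 13.0, 19.1, 20.3, 20.9 and 21.8 CPM, lowest in parental cells, with no step between neighbouring gates beyond counting error. Of these 6 IkB-family and feedback genes, 1 was higher, NFKBIB, and 0 lower in YFP-high against YFP-negative cells. Against parental cells 2 were higher, NFKBIB and NFKBIZ, and 0 lower. Both counts stand beside the same shares of all genes as for the subunits.

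**Figure D3:**
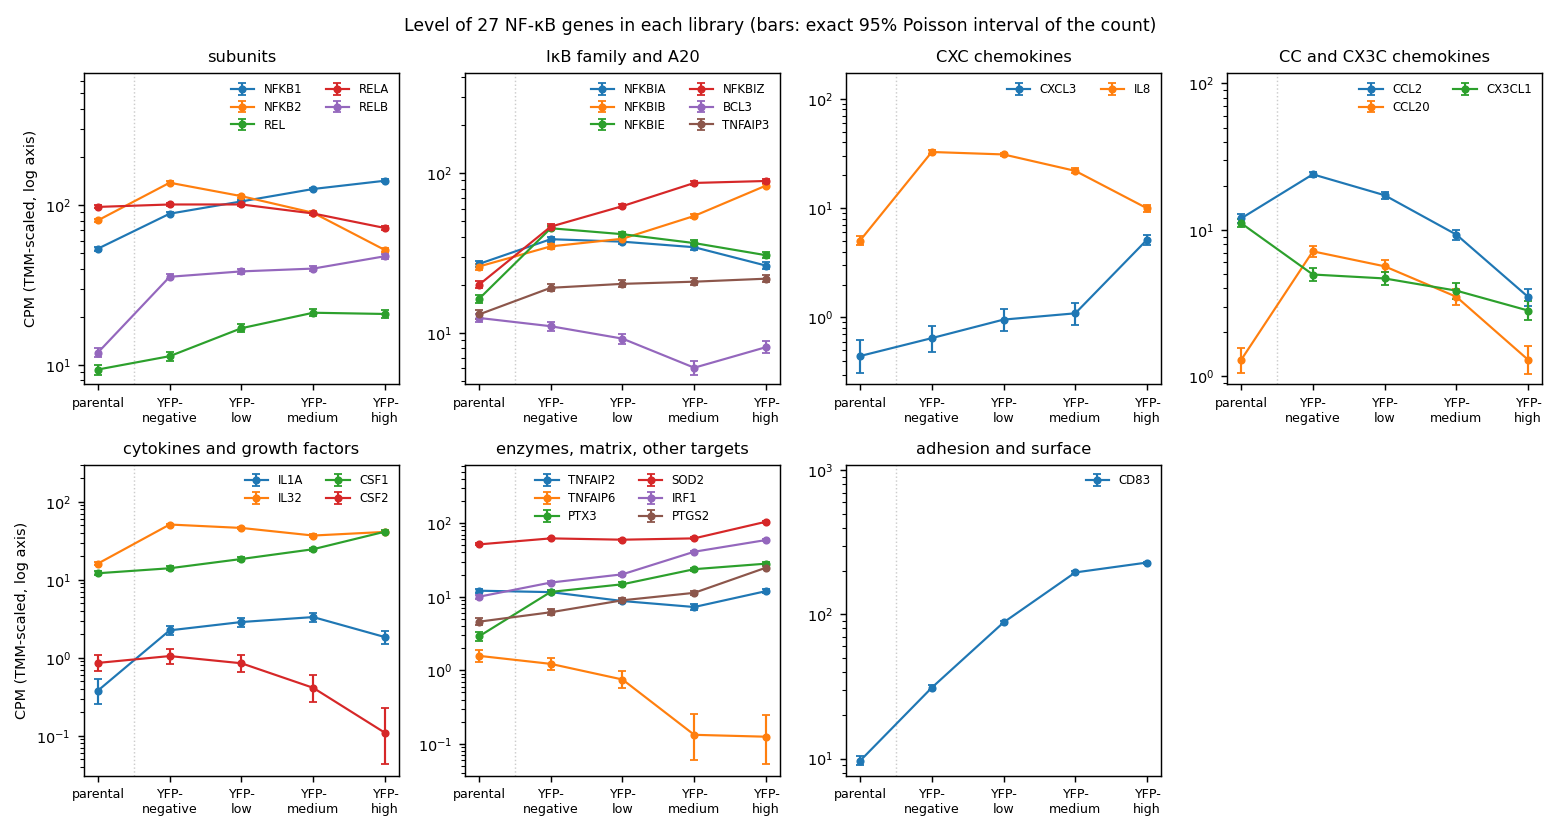
Level of each of the 27 analysed members (CPM, log axis) in the 5 libraries, by role, with exact 95% Poisson intervals of the counts. CD83, PTGS2, IRF1, CSF1 and NFKBIB climb over the gates, CCL2, CCL20, IL8, CSF2 and NFKB2 descend from YFP-negative to YFP-high, and RELB, IL8, IL1A and CCL20 stand apart between parental and YFP-negative cells.

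Of the 5 analysed chemokines, 1 was higher and 3 lower in YFP-high against YFP-negative cells (20.5% and 11.3% of all genes), and 1 was higher and 2 lower against parental cells (21.3% and 14.9% of all genes). The higher one was CXCL3 in both, which passed the filter only through YFP-medium and YFP-high cells. CCL2, which recruits monocytes, had 11.98 CPM (parental), 24.0 CPM (YFP-negative), 17.3 CPM (YFP-low), 9.30 CPM (YFP-medium) and 3.49 CPM (YFP-high). It was 6.87-fold lower in YFP-high than in YFP-negative cells (5.98 to 7.93) and 3.43-fold lower than in parental cells (2.96 to 3.99). CCL2 was thus past 2-fold below both baselines. CCL20, which attracts cells bearing its receptor CCR6, had 1.29, 7.14, 5.65, 3.497 and 1.30 CPM in the same order. Its YFP-high level was 5.50-fold below YFP-negative (4.37 to 7.01) and equal to parental within counting error, at 1.00-fold (0.742 to 1.36).

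IL8, the neutrophil chemokine also named CXCL8, had 5.05, 32.6, 31.0, 21.9 and 9.97 CPM from parental to YFP-high cells. YFP-low and YFP-negative cells were not separated by counting error, and most of its descent came in the last step, with 33.9% of the log2 difference between YFP-high and YFP-negative reached in YFP-medium cells. IL8 was 3.27-fold lower in YFP-high than in YFP-negative cells (3.00 to 3.58), and still at 1.98-fold against parental cells (1.74 to 2.24). CX3CL1, a membrane-bound chemokine, had 11.1, 4.96, 4.67, 3.85 and 2.82 CPM, and was the only analysed chemokine highest in parental cells. It was 3.95-fold lower in YFP-high than in parental cells (3.36 to 4.67).

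CXCL3, a neutrophil chemokine, went the other way. It had 35 reads (parental), 54 reads (YFP-negative), 74 reads (YFP-low), 74 reads (YFP-medium) and 329 reads (YFP-high), or 0.444, 0.647, 0.956, 1.09 and 5.15 CPM. The YFP-high library stood alone, 4.71-fold above YFP-medium (3.65 to 6.15) and 7.95-fold above YFP-negative cells (5.95 to 10.8). CXCL3 has near-identical relatives in CXCL1 and CXCL2, and how reads that fit several of them were counted is not stated, so the levels of all of them are uncertain. CXCL1 had 0 reads in all 5 libraries, CXCL2 had 0 to 1, CXCL6 had 0 to 2 and CXCL5 had 4 to 25. A count of 0 allows up to 0.0469 CPM in YFP-high and 0.036 CPM in YFP-negative cells (3 reads per library).

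Of the cytokines, IL32, an inflammatory cytokine of primates, had 16.2 CPM (parental), 51.2 CPM (YFP-negative), 46.3 CPM (YFP-low), 37.0 CPM (YFP-medium) and 41.2 CPM (YFP-high). IL1A, an interleukin-1 receptor ligand, had 30, 188, 223, 226 and 118 reads, or 0.38, 2.25, 2.88, 3.33 and 1.85 CPM. Both were above parental in every carrying fraction, IL32 by 3.17-fold (2.97 to 3.37) and IL1A by 5.93-fold (4.02 to 9.03) already in YFP-negative cells. In YFP-high against parental cells IL1A was at 4.85-fold (3.23 to 7.51), where the pseudocount of 2 CPM also ended the call, at a log2 ratio of 0.69. The growth factor of macrophages CSF1 had 12.2, 14.1, 18.5, 24.7 and 41.5 CPM, an ascent at each gate. CSF1 was 2.94-fold higher in YFP-high than in YFP-negative cells (2.75 to 3.16) and 3.41-fold higher than in parental cells (3.17 to 3.68).

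CSF2, which encodes the granulocyte and macrophage growth factor GM-CSF, ran opposite to CSF1. Its reads numbered 68 in parental cells, then 88, 66, 28 and 7 from YFP-negative to YFP-high cells. That is a 9.63-fold lower level in YFP-high than in YFP-negative cells (4.48 to 24.7), on few reads. TNFAIP6, a hyaluronan-binding protein of inflamed matrix, had 124, 102, 58, 9 and 8 reads and was 9.77-fold lower (4.77 to 23.2), with YFP-medium and YFP-high cells not separated. The calls of CSF2 and TNFAIP6 ended with a pseudocount of 2 CPM, at log2 ratios of -0.53 and -0.60. TNF itself was listed at 0 in every library. Its place in the MHC region makes that value uncertain: FLOT1, CLIC1 and ABCF1, genes of the region that cells use widely and that were picked after their values were seen, also had only 0 to 8 reads. IL1B had 3 to 23 reads, and CCL5 0 to 6.

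CD83, a surface protein of activated dendritic and B cells and a known NF-kB target, showed the widest range of any member with over 5 CPM. It had 760 reads (parental), 2590 reads (YFP-negative), 6810 reads (YFP-low), 13262 reads (YFP-medium) and 14647 reads (YFP-high), or 9.64, 31.0, 88.0, 196 and 229 CPM. Each library lay above the one before it beyond counting error. In YFP-high cells CD83 was 7.38-fold higher than in YFP-negative (7.08 to 7.70) and 23.8-fold higher than in parental cells (22.1 to 25.6). It was the only member past 2-fold in YFP-low against YFP-negative cells, at 2.83-fold (2.71 to 2.97), where 2.11% of all genes were higher and 0.0463% lower. Per length it had 237 TPM in YFP-high cells, ahead of all other members, against 10.8 TPM in parental cells, where RELA led at 78.3 TPM. The adhesion genes had few reads, ICAM1 with 24 to 43 and VCAM1 with 0 to 7.

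Among the enzymes and other targets, IRF1, a transcription factor of interferon responses, had 9.99 CPM (parental), 15.6 CPM (YFP-negative), 20.2 CPM (YFP-low), 40.9 CPM (YFP-medium) and 58.9 CPM (YFP-high). PTGS2, the inducible cyclooxygenase of prostaglandin synthesis, had 4.58, 6.15, 8.94, 11.3 and 24.8 CPM. Both were higher at every gate, IRF1 mostly by YFP-medium, where 72.3% of its log2 difference was reached, and PTGS2 mostly in YFP-high, with 42.8% reached in YFP-medium. IRF1 was 3.78-fold (3.55 to 4.03) and PTGS2 4.04-fold (3.65 to 4.47) higher in YFP-high than in YFP-negative cells. PTX3, a secreted pattern-recognition protein, had 2.89, 11.6, 14.8, 23.7 and 28.1 CPM, 9.73-fold higher in YFP-high than in parental cells (8.47 to 11.2) and 2.42-fold higher than in YFP-negative cells (2.24 to 2.62). The last call ended with total-count scaling, at a log2 ratio of 0.98.

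SOD2, the mitochondrial superoxide dismutase, had similar levels in 4 libraries, at 51.4 CPM (parental), 62.0 CPM (YFP-negative), 59.5 CPM (YFP-low) and 62.1 CPM (YFP-medium), and had 104 CPM in YFP-high cells. It was 2.03-fold higher in YFP-high than in parental cells (1.95 to 2.11), close to the rule, and that call ended with total-count scaling, TPM and a pseudocount of 2 CPM, at log2 ratios of 0.78, 0.90 and 0.995. TNFAIP2, a TNF-induced gene, was lowest in the middle, with 12.1, 11.5, 8.74, 7.24 and 11.9 CPM from parental to YFP-high cells. Shared exons bear on a few of these values, since neither the annotation nor the strand setting of the counting is stated. By GENCODE 29, other genes' exons cover 50.7% of the exon bases of REL, 26.9% of ICAM1, 15.3% of IRF1, 8.1% of SOD2 and 7.66% of IL32, and at most 1.88% of any other member. The overlapping genes lie on the same strand for REL and IL32, on the other strand for ICAM1 and IRF1, and on both for SOD2. A strand setting would not separate those on the same strand.

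**Figure D4:**
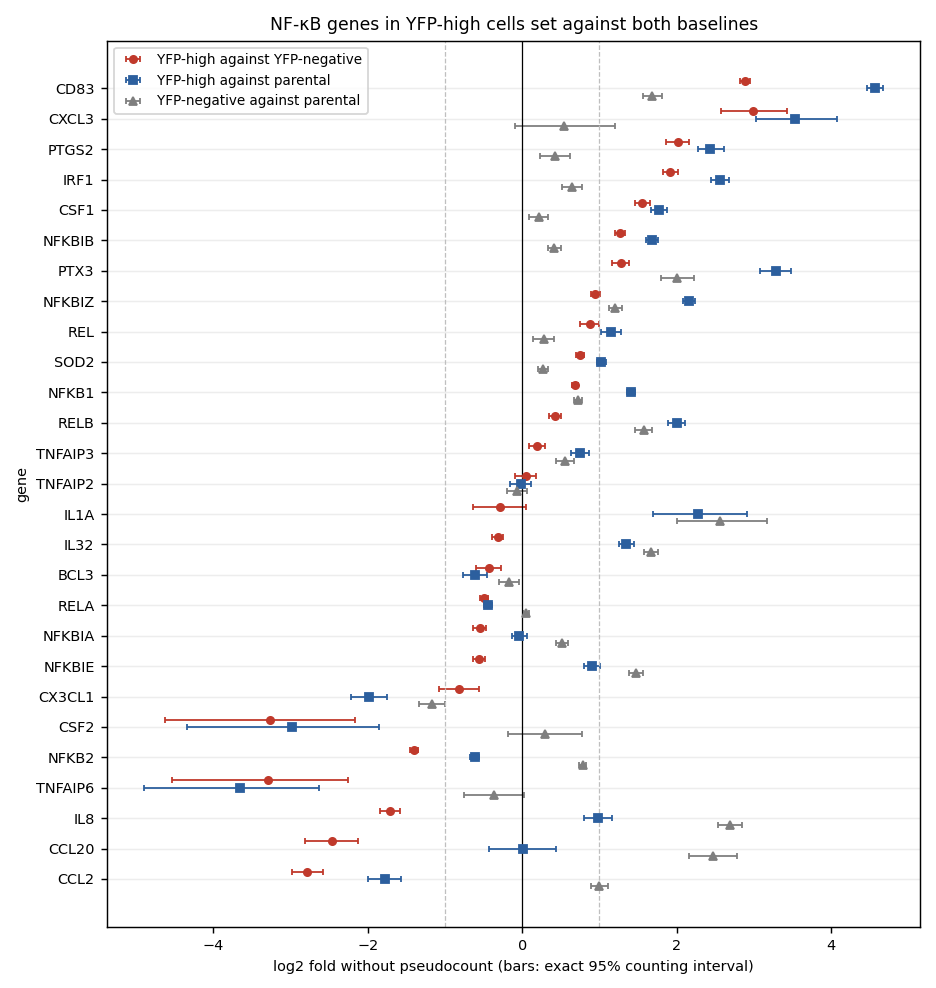
Log2 fold of each analysed member without a pseudocount, with exact 95% counting intervals, in YFP-high against YFP-negative (red circles), YFP-high against parental (blue squares) and YFP-negative against parental cells (grey triangles); dashed lines mark 2-fold. CD83, CXCL3, PTGS2 and IRF1 lie on the right of both baselines and CCL2, CSF2 and TNFAIP6 on the left of both, while for IL8 and CCL20 the YFP-negative point lies right of 0 and the YFP-high point against YFP-negative left of it.

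Set against both baselines, 7 members were higher and 3 lower in YFP-high cells against each, or 25.9% and 11.1%, against 18.1% and 8.59% of all analysed genes. The comparisons share the YFP-high library. Higher than both were CD83, CXCL3, PTGS2, IRF1, CSF1, PTX3 and NFKBIB, and lower than both were CCL2, CSF2 and TNFAIP6. CXCL3 entered only through YFP-medium and YFP-high cells, where it is high. CSF2 and TNFAIP6 do not pass the filter on mean level. CCL20 and IL8 were higher in YFP-negative than in parental cells and lower in YFP-high than in YFP-negative cells, and they stayed under the 2-fold rule in YFP-high against parental cells. RELB, NFKBIZ, IL1A and IL32 were higher in YFP-negative than in parental cells and remained higher than parental in YFP-high cells, with no call against YFP-negative. BCL3, NFKBIA, RELA, TNFAIP2 and TNFAIP3 had no call in any of the 3 comparisons.

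Over the 4 fractions, the level of 11 members ascended at each step from YFP-negative to YFP-high, that of 9 descended at each step and 7 had a mixed order. Every step lay beyond counting error for 7 of the 11, which are NFKB1, NFKBIB, PTX3, IRF1, CSF1, PTGS2 and CD83, and for 4 of the 9, which are NFKB2, NFKBIE, CCL2 and CCL20. Of all analysed genes 24.1% ascended and 27.9% descended at each step. The share of all genes with every step beyond counting error was not computed, so the 7 and the 4 describe these members only. In YFP-medium against YFP-negative cells 2 members were higher, CD83 and IRF1, and 2 lower, CCL2 and TNFAIP6, against 9.76% and 2.21% of all genes. Total-count scaling gave 2 higher and 4 lower members there, with BCL3 and CCL20 added, and TPM gave 2 and 4 with CCL20 and CSF2 added.

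Against the parental library, calls were many in YFP-low and YFP-medium cells. In YFP-low cells 9 members were higher and 1 lower, against 5.92% and 4.43% of all genes. These were the same genes as in YFP-negative against parental cells, and both comparisons share the parental library. Only CD83 was called in YFP-low against YFP-negative cells. In YFP-medium cells 14 were higher and 2 lower, against 12.3% and 8.29% of all genes. IL1A of these 14 and TNFAIP6 of these 2 entered only through libraries where they are high. Total-count scaling gave 10 and 3 and TPM 13 and 4. The step of YFP-medium against YFP-low had 2 members higher, CD83 and IRF1, and 0 lower, against 2.71% and 0.185% of all genes, with the IRF1 call ended by total-count scaling, TPM and a pseudocount of 2 CPM, at log2 ratios of 0.88, 0.92 and 0.95. The step of YFP-high against YFP-medium had CXCL3 and PTGS2 higher and CCL2, CCL20 and IL8 lower, against 9.25% and 1.33% of all genes. The IL8 and CCL20 calls of that step ended with a pseudocount of 2 CPM, at log2 ratios of -0.999 and -0.74. These chemokines shared the last gate as the place of their largest step.

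Other genes of the pathway were taken from lists that hold no member. Of 18 analysed receptors and adaptors, 3 were higher and 3 lower in YFP-high against YFP-negative cells, or 16.7% each, against 20.5% and 11.3% of all genes, with a median log2 ratio of -0.21 (all genes -0.04). IL1R1, the interleukin-1 receptor, had 14.3 CPM (parental), 22.9 CPM (YFP-negative), 34.7 CPM (YFP-low), 58.0 CPM (YFP-medium) and 194 CPM (YFP-high), 8.50-fold higher in YFP-high than in YFP-negative cells (8.10 to 8.92). TNFRSF1A, the main TNF receptor, had 112, 99.4, 82.2, 54.4 and 21.4 CPM, 4.65-fold lower (4.39 to 4.93). IL1R1 and TNFRSF1A thus ran in opposite directions over the gates. Both are named for having the largest changes of their list. Its other receptor genes for interleukin-1 and TNF, IL1RAP and TNFRSF1B, are not described. IRAK4, a kinase at the interleukin-1 receptor, was 3.03-fold higher (2.79 to 3.30) and TLR4, the lipopolysaccharide receptor, 2.93-fold lower (2.78 to 3.10).

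Of 15 kinases and linear ubiquitin genes, 0 were higher and 2 lower, or 13.3%, in YFP-high against YFP-negative cells. That stands beside 20.5% higher and 11.3% lower of all genes. The median was -0.56 (all genes -0.04). The lower ones were IKBKE, an IkB kinase relative, at 3.05-fold (2.71 to 3.44) and TAB1, a partner of the kinase TAK1, at 2.24-fold (2.09 to 2.40), while MAP3K7, the TAK1 gene, and TBK1 had log2 ratios of -0.92 and -0.88. Among 9 negative regulators, beside the same shares of all genes, 1 was higher (11.1%), TNIP2 at 2.75-fold (2.63 to 2.87), and 1 lower (11.1%), TNIP1 at 2.03-fold (1.96 to 2.10). NFKBID and OTUD7B had log2 ratios of 0.78 and -0.56, and the median was -0.11. Against parental cells, YFP-high cells had 5 higher and 2 lower receptors and adaptors, 0 and 2 kinases and linear ubiquitin genes, and 2 and 0 negative regulators, beside 21.3% higher and 14.9% lower of all genes.

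Of 17 further NF-kB targets, 3 were higher and 7 lower in YFP-high against YFP-negative cells, or 17.6% and 41.2%, against 20.5% and 11.3% of all genes, with a median of -0.97. In YFP-negative against parental cells 5 of them were higher and 0 lower, or 29.4% and 0%, against 2.15% and 2.93% of all genes, with a median of 0.71. GCH1, the first enzyme of tetrahydrobiopterin synthesis, had 6.63 CPM in parental and 15.4, 21.8, 44.9 and 131 CPM from YFP-negative to YFP-high cells, 8.51-fold higher in YFP-high than in YFP-negative cells (8.03 to 9.04). The urokinase gene PLAU had 25.2, 51.9, 43.3, 29.1 and 14.1 CPM from parental to YFP-high cells, 3.68-fold lower in YFP-high than in YFP-negative cells (3.42 to 3.96). GCH1 thus ascended at each gate, as CD83 did, but the steps differed. GCH1 went from 44.9 to 131 CPM in the last step, whereas CD83 had reached 92.1% of its log2 difference in YFP-medium cells. PLAU had the peak in YFP-negative cells seen for IL8 and CCL20. TRAF1 and BIRC3, signalling proteins that NF-kB induces, were 4.59-fold and 3.60-fold lower in YFP-high than in YFP-negative cells, with log2 ratios of 2.67 and 1.85 in YFP-negative against parental cells.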

How the data were processed

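RNA was sequenced from 5 U2OS libraries, 1 per group. The authors deposited raw read counts per gene name; HTSeq 0.6.0, HISAT2 2.0.3, Trimmomatic 0.36, CASAVA 1.8.2, bcl2fastq and build hg19 are listed per the submitters' processing notes, without order. Annotation, strand setting and the TPM tool were not stated. The authors also deposited TPM, summing to 1000000 per library, used for levels between genes. The 6 rows that name no gene (22.3% to 24.3% of reads) were left out.

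Counts were scaled with TMM in edgeR 4.0.16 (R 4.3.3; factors 0.904 to 1.09), and genes reaching 1 CPM in any library were kept. Log2 ratios used a pseudocount of 0.5 CPM and understate low genes. Folds carry no pseudocount and have exact 95% Clopper-Pearson intervals given both counts' total. Copied reads are not independent molecules, so intervals cover counting error only.

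Members and lists were chosen with earlier results of these data known. Members with at least 5 CPM in a library are given in every library, and from each other list up to 4 genes with the largest YFP-high against YFP-negative change and 5 CPM in either. Alternatives were total counts, size factors from DESeq2 1.42.0, filters of none or 5 CPM, a pseudocount of 2 CPM, TPM, a 1.5-fold rule and, added after seeing the data, a filter of 1 CPM on the mean of the libraries. Other tools were matplotlib 3.10.9, scipy 1.17.1, pandas 2.3.3, numpy 2.4.6 and Python 3.11.15. The value of 1 leukocyte marker is not reported here.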

Additional observations from a re-analysis of the deposited data

How the results depend on the processing

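No paired analysis was possible because each group has 1 library, and for the same reason no library could be left out. Of the recounts of members past 2-fold under the alternatives, 92 stayed within 1.5 times and 20 did not. In YFP-medium against YFP-negative cells, the 2 higher members became 8 with the 1.5-fold rule, and the 2 lower became 4 with total counts or TPM, 1 with a 5 CPM filter, a 2 CPM pseudocount or the filter on mean level (chosen after seeing the data) and 7 with the 1.5-fold rule. The 7 higher members in YFP-high against YFP-negative cells became 11 with the 1.5-fold rule. Against parental cells, the 9 higher members of YFP-low became 16 with the 1.5-fold rule and the 1 lower became 0 with a 2 CPM pseudocount or 2 with the 1.5-fold rule. The 2 lower of YFP-medium became 1 with either filter or the 2 CPM pseudocount and 4 with TPM or the 1.5-fold rule, the 4 lower of YFP-high became 2 with either filter or that pseudocount, and the 1 lower of YFP-negative became 0 with that pseudocount. The 5 CPM filter left out TNFAIP6, CSF2 and IL1A, the filter on mean level TNFAIP6 and CSF2. The 2 CPM pseudocount ended calls of these 3 and of CX3CL1, NFKBIB, CCL20, SOD2, IRF1 and IL8. Of the values of named members, 192 moved by less than counting error, 96 by more and 0 of those called changed sign. With total counts the median over all genes shifted by -0.20 on the log2 scale in YFP-medium against YFP-negative cells and by -0.17 against parental cells, giving 1084 higher and 784 lower genes (1475 and 334 with TMM) and 1499 and 1717 (1854 and 1252). With 1 library per group, depth limits CSF2, TNFAIP6 and the 9 members under the filter most.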
